A study of Mus musculus with 4 samples.

Results

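Immature B cells were examined in single-cell RNA profiles of mouse bone marrow taken after femoral artery ligation or a sham operation. Members were chosen by their own transcript counts, as cells with at least 3 UMIs (unique molecular identifiers, each standing for 1 captured transcript) of Ms4a1 and Bank1 together and at most 1 UMI of Ighd and Fcer2a together. Ms4a1 encodes the surface protein CD20 and Bank1 a scaffold of B cell receptor signalling, while Ighd and Fcer2a (CD23) mark B cells that have matured further. The rule found 536 of 26943 cells, or 1.99%. Of these, 185 cells came from the surgery replicates and 351 from the sham replicates.

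A developing B cell first rearranges its heavy chain gene and tests it with the surrogate light chain, then divides, and then rearranges a kappa or lambda light chain gene. The cell becomes an immature B cell once the heavy chain and a true light chain reach the surface together as IgM. Immature B cells whose receptor binds self antigen can rearrange the light chain again, and those that pass leave the marrow to become IgD-bearing B cells.

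All mice were wild type and had received E0771 cells, a mouse breast cancer line, 3 days before the operation. The surgery group then had a femoral artery tied off to make the limb ischaemic, and the sham group had the operation without ligation. Marrow was collected at day 9 and sorted for lineage-negative, cKit-positive progenitors with or without Sca1. Each group had 4 hashtag replicates, 2 in each of 2 libraries (batch 1 and batch 2), and there was no group without tumour cells. Whether each replicate stands for its own mouse is not given by the labels, so p-values measure only the spread between these replicates. The operation label names each library by 1 operation, but the hashtag names place surgery and sham replicates in both, and the hashtag names were used here. Members per replicate were 50 and 29 in batch 1 and 19 and 87 in batch 2 after surgery, against 69 and 131 in batch 1 and 61 and 90 in batch 2 after sham. Their summed UMIs ran from 95216 to 347012 per replicate. The 2 libraries shared 4 barcode sequences, none of them in a member.

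The light chain constant genes carry much of what follows, so the start of each coding sequence is shown, taken from the GRCm38 reference transcripts. Igkc (chr6:70726435-70726966, plus strand) is the only kappa constant gene, and Iglc1 (chr16:19061618-19062071), Iglc2 (chr16:19198396-19200351) and Iglc3 (chr16:19065230-19065681), all on the minus strand, are lambda constant genes. Capitals mark bases of Iglc1 and Iglc3 that differ from Iglc2 in the same 60-base window.
Igkc: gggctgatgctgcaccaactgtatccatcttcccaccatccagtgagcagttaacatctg
Iglc1: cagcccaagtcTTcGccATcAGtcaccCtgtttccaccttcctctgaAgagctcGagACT
Iglc2: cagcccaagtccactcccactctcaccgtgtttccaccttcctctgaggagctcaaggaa
Iglc3: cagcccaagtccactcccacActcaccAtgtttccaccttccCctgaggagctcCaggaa
Iglc1 differs from Iglc2 at 13 of these bases and Iglc3 at 4. Over the whole coding sequence Iglc2 and Iglc3 are 96.2% identical, and after it 90.2%, so the division of reads between these 2 genes is uncertain. Iglc1 is 72.6% identical to Iglc2, and Igkc 52.2%.

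The transcripts of the gated cells fit the label for most of them. Levels are given below in CPM, counts scaled by depth: the summed UMIs of a gate in 1 replicate, scaled to a fixed total, as mean ± SD over 8 replicates unless stated. The comparison gates were pro-B (1893 cells with at least 3 UMIs of Vpreb1 and Igll1), pre-B (539 cells with at least 3 UMIs of Myl4 and Fcrla) and IgD B cells (302 cells with at least 2 UMIs of Ighd and Fcer2a beside the Ms4a1 and Bank1 UMIs). Among the members, 90.3% had an Ms4a1 UMI and 84.9% a Bank1 UMI, values that describe the rule itself. Igkc rested at 45.2 CPM in pro-B, 313 CPM in pre-B, 2259 ± 517 CPM in immature B and 2330 ± 447 CPM in IgD B cells. Ly6d, a surface protein of early B lineage cells, ran in the same order of gates at 91.2, 421, 2187 ± 546 and 1485 ± 363 CPM. Both thus stood far higher in the immature gate than in the gates before it. Vpreb3, which associates with the pre-B and immature heavy chain, was at 1776, 1106, 818 ± 279 and 294 ± 160 CPM, and Il7r, the receptor for the growth factor of early B cells, at 206, 280, 44.4 ± 21.3 and 7.98 CPM.

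**Figure D1:**
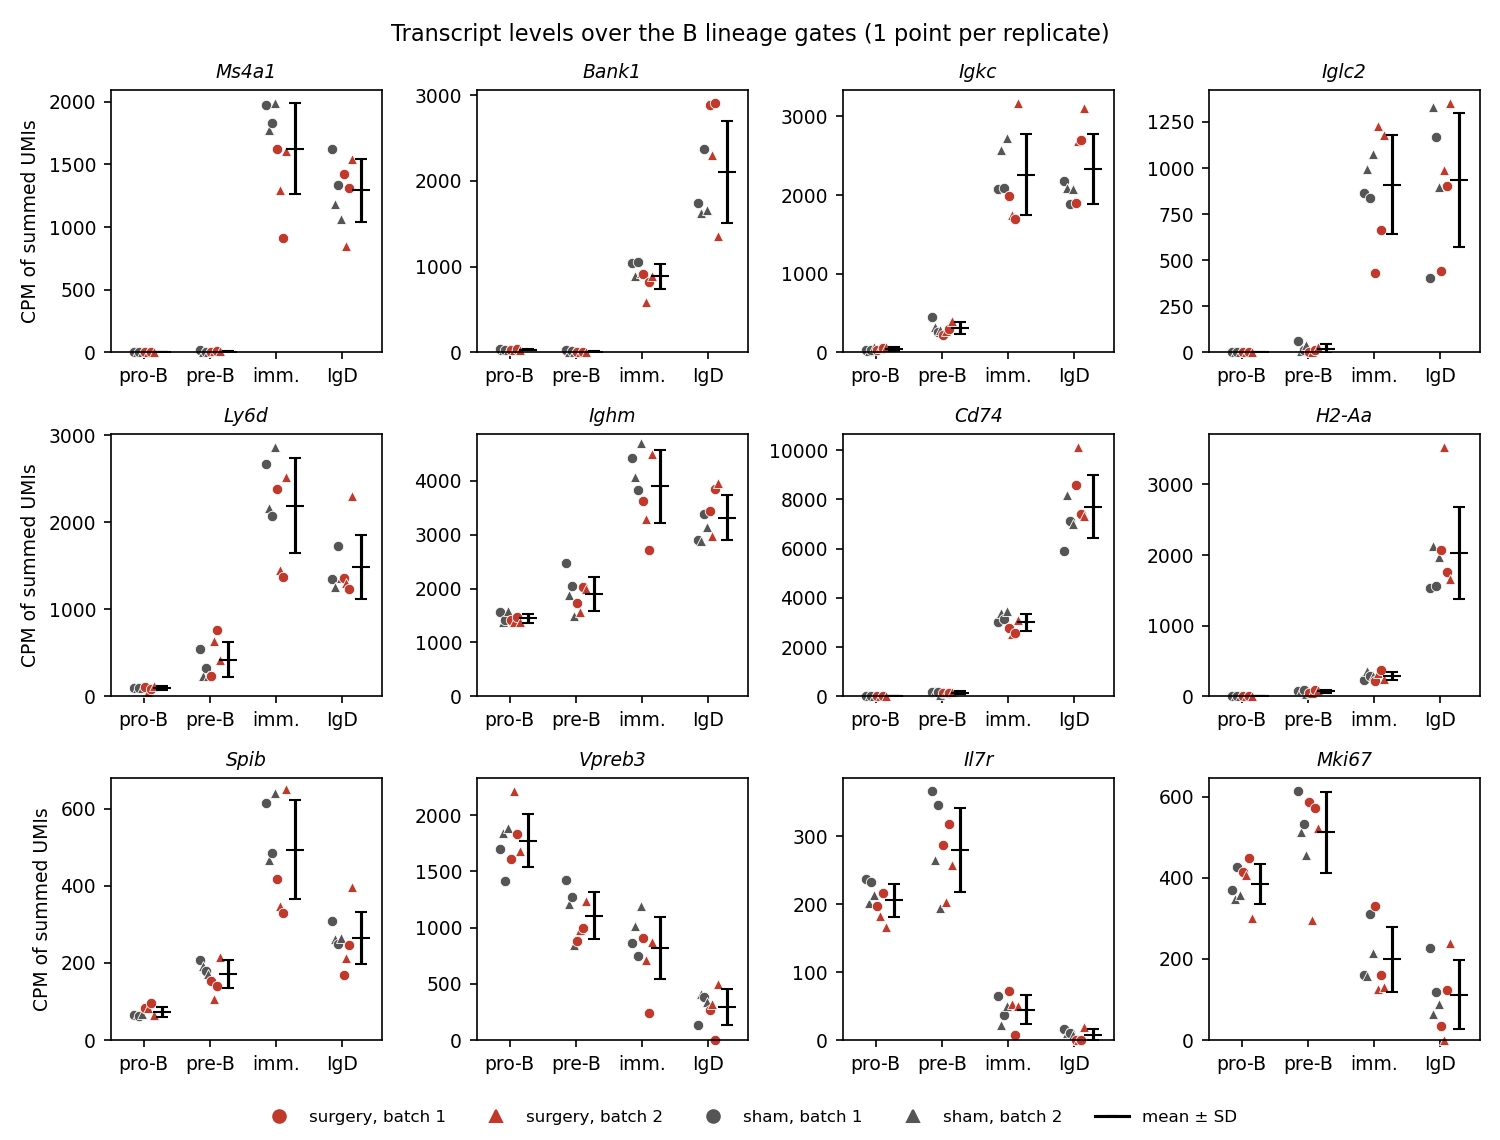
Level of 12 transcripts in CPM of summed UMIs over 4 gates (pro-B, pre-B, immature, IgD B), 1 point per hashtag replicate, with mean ± SD of 8 replicates. Light chain, Ly6d and Spib transcripts are higher in the immature than in the pre-B gate, Vpreb3, Il7r and Mki67 are lower, and Cd74 and H2-Aa reach their high level in the IgD gate.

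The sort was for cKit, yet a Kit UMI was found in 4.10% of members, against 51.5% of the 14671 cells without B transcripts. The other B lineage gates were low too, at 17.6% of pro-B, 11.1% of pre-B and 1.99% of IgD B cells. The median depth was 2076.5 UMIs in members and 7425 UMIs in the cells without B transcripts. No member had a UMI of the T cell genes Cd3e or Trbc2, which allows a share of up to 0.560% of cells with a UMI, though a cell of this depth can express a gene and show none. A UMI of Siglech, of plasmacytoid cells, was found in 1 member, and of Jchain and Sdc1, of plasma cells, in 2 and 10. The limit covers counting error only.

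Transcripts of several other lineages were present. The 4 basophil and mast cell markers summed to between 36.3 and 9652 CPM over the surgery replicates and to between 24.9 and 48.3 CPM over the sham replicates. The high value was that of surgery batch 2 replicate 1, where Mcpt8, a basophil protease, had 4726 CPM. The 5 erythroid markers summed to between 38.2 and 82.4 CPM after surgery and to between 64.0 and 1122 CPM after sham, with the haemoglobin gene Hba-a1 at 731 CPM in sham batch 1 replicate 1. Nkg7, of T and NK cells, had 578 CPM in surgery batch 2 replicate 1 and 450 CPM in surgery batch 1 replicate 2. The 6 T and NK markers together had a median of 533 CPM in the cells without B transcripts. Elane, a granule protease, had a UMI in 48.7% of members and in 81.8% of cells without B transcripts. The 8 neutrophil markers summed to between 927 and 23886 CPM over the surgery replicates and to between 1556 and 18025 CPM over the sham replicates. Much of this sum lay in 24 members (4.48%; 11 surgery and 13 sham cells) with under 3 UMIs of a set of 5 B identity genes together, which includes Cd79a, Cd79b, Pax5 and Ebf1. They had a median of 11936 UMIs, held 16.7% of all member UMIs, carried 42640 CPM of the neutrophil markers, no Cd79a and 10.7 CPM of Ly6d, and 23 of them entered the gate on Bank1 alone. Without them the neutrophil sum was between 674 and 2082 CPM after surgery and between 917 and 1130 CPM after sham. The basophil sum was then between 26.4 and 46.2 CPM after surgery and between 25.4 and 39.9 CPM after sham, while the erythroid sum still reached 1380 CPM after sham. The T and NK sum was then between 15.1 and 26.4 CPM after surgery and between 7.98 and 34.2 CPM after sham. Counts of genes in a list without these 24 cells are given where they differ. In fits without the 24 cells the comparison gates were not filtered by B identity. Their neutrophil sums ran from 1051 to 12011 CPM in pre-B and from 845 to 24413 CPM in IgD B cells.

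In a few cells Bank1 also followed barcode letters. Of 8551 distinct first 8 bases of the cell barcode, 2 stood out by their Bank1 UMIs in cells with no B identity UMI. Each of these 2 was found in 6 cells, from both libraries and from 4 and 3 replicates. All 12 of those cells had Bank1 UMIs, from 2 to 18, none had an Ms4a1 UMI, and 11 were members, of which 9 were among the 24 just described. In the 16478 cells with no B identity UMI, 2.33% had any Bank1, and the highest count in a cell with any other prefix was 5. The 2 prefixes held 13.1% of the Bank1 UMIs of those cells, so most of these UMIs lay under other prefixes. They were chosen by Bank1 itself, and the cause was not tested.

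The edges of the gate differed in kind. The 74 members with exactly 3 UMIs of Ms4a1 and Bank1 had 2194 CPM of Ighm and 1134 CPM of Ly6d as a pool, against 746 and 122 CPM in the 172 cells just outside with 2 UMIs. The 149 members with exactly 1 UMI of Ighd and Fcer2a had 4137 CPM of Cd74, the invariant chain of MHC class II, against 5571 CPM in the 95 cells just outside with 2 UMIs.

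By their light chain transcripts the members were of both kinds, and most carried both. Of 536 members, 467 had at least 3 UMIs of Igkc, Iglc1, Iglc2 and Iglc3 together. A cell was called kappa or lambda where at least 80% of those UMIs were of 1 kind, which gave 116 kappa cells (24.8%), 99 lambda cells (21.2%) and 252 mixed cells (54.0%). Over 8 replicates mixed cells made up 55.4 ± 9.39%, in a range of 44.3 to 73.3%. IgD B cells had 66.2 ± 10.3% mixed cells by the same call, while the 179 called pre-B cells were mainly kappa, at 82.1 ± 10.7%, with 10.7 ± 5.599% mixed. Background was low: 1.22% of cells without B transcripts had any Igkc UMI and 0.491% any lambda UMI.

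**Figure D2:**
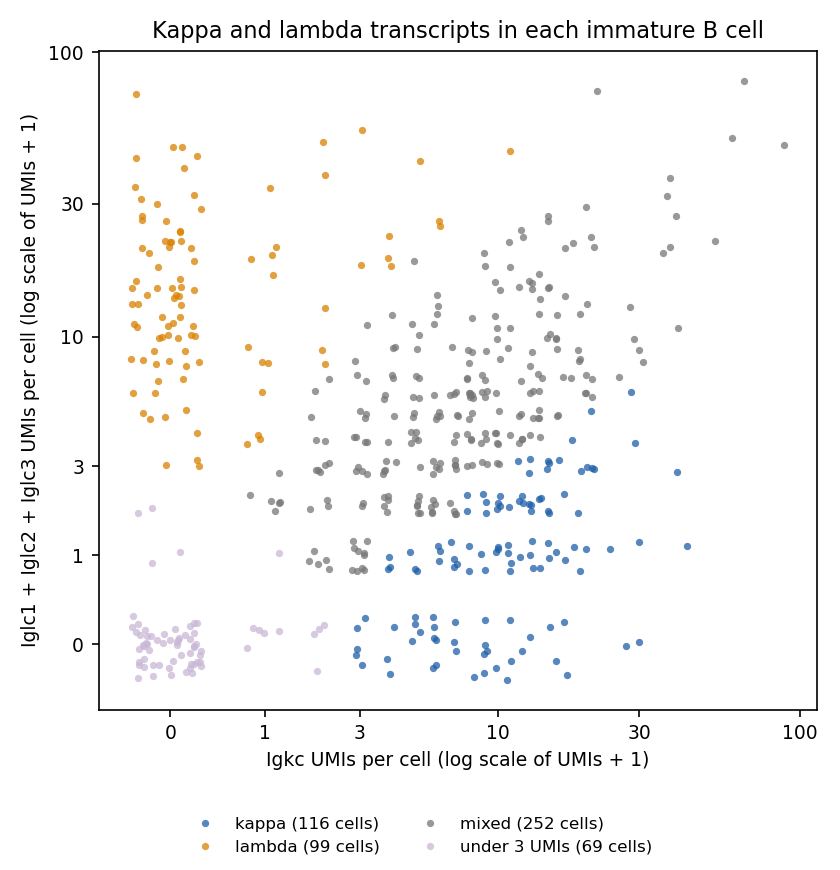
Igkc UMIs against the sum of Iglc1, Iglc2 and Iglc3 UMIs in each of the 536 immature B cells, on a log scale of UMIs + 1 with points jittered. Lambda cells (99) line the left edge, kappa cells (116) the lower edge, and 252 mixed cells fill the space between.

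Mixed cells were not only those with few light chain UMIs. Among the 314 members with at least 10 light chain UMIs, 167 were mixed (53.2%), 74 kappa and 73 lambda, and in 48 members both kinds reached 10 UMIs. Mixed cells had a median of 7 Igkc and 5 lambda UMIs, kappa cells a median of 11 Igkc UMIs and lambda cells a median of 14 lambda UMIs. The share of mixed cells moved with depth, from 44.8% of called members at 1000 to under 2000 UMIs to 62.4% at 2000 to under 3000, 58.8% at 3000 to under 6000 and 69.6% at 6000 UMIs and over. Lambda cells took 31.1%, 14.0%, 5.88% and 21.7% in the same order. Scrublet called 3 members doublets, but it marked so few cells in all that doublets among the mixed cells were in effect not assessed.

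Lambda cells were led by Iglc1 in 54 cells, by Iglc2 in 30 and by Iglc3 in 15. Both Iglc1 and Iglc2 were seen in 73 of the 99 lambda cells, and Iglc2 with Iglc3 in 51. Variable gene transcripts were sparse. A UMI of any of the 346 annotated Ighv, Igkv or Iglv features was found in 149 members, with 164 Igkv UMIs over 47 genes, 33 Ighv UMIs over 25 genes and 23 Iglv UMIs over 2 genes. Igkv1-110 led with 18 UMIs in 15 cells, and Igkv19-93 and Igkv3-12 followed with 15 UMIs each, in 12 and 9 cells. Of 113 members with Igkv, 91 had 1 Igkv gene and 22 had several. The lambda UMIs were 12 of Iglv1 in 12 cells and 11 of Iglv3 in 11 cells.

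Members with few and with many light chain UMIs also differed in early B transcripts. A group of 46 members had at least 3 B identity UMIs but at most 2 light chain UMIs. As a pool they carried 1995 CPM of Vpreb1 and 1496 CPM of Igll1, the surrogate light chain pair, and 593 CPM of Dntt, the polymerase that adds bases at heavy chain joints. The 314 members with at least 10 light chain UMIs had 5.22 CPM of Vpreb1, 2.09 CPM of Igll1 and 3.13 CPM of Dntt. Within 4 replicates that had at least 10 cells of each, members with at least 10 light chain UMIs were tested against members with at most 2, a group that also holds most of the 24 cells without B identity. At an adjusted p under 0.05 (edgeR quasi-likelihood test, Benjamini-Hochberg), 231 of 1427 genes were higher (16.2%) and 213 lower (14.9%). Ly6d was at 3332 ± 650 CPM with light chain and 129 ± 54.3 CPM without, a log2 difference of 4.52 ± 0.24 (SE), and Cd74 at 4076 ± 623 against 236 ± 69.0 CPM. Fcmr, the Fc receptor for IgM, Cd180, a Toll-like receptor homologue, and Tnfrsf13c, the BAFF receptor, were higher by log2 3.62, 3.40 and 3.35. Vpreb1 was lower by the widest margin, at 3.78 ± 4.68 CPM with light chain and 905 ± 546 CPM without, and among other genes lower were Erg, a factor of early progenitors, and the granule genes Ctsg, Prtn3, Elane and Mpo, at log2 -4.84, -4.73, -4.29, -4.21 and -3.40, and Ifitm2 at -3.89. The fit without the 24 cells could not be made, since too few replicates kept 10 cells on both sides. Over all replicates those 24 held 16.7% of member UMIs, and the 46 members with B identity and at most 2 light chain UMIs 10.7%. As pools, the 24 and the 46 had 10.7 and 283 CPM of Ly6d, 96.4 and 277 CPM of Cd74, and 10162 and 1103 CPM of Elane. The part of the 24 cells in these differences was not tested.

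Immature B cells were next compared with pre-B cells within the same 8 replicates. Over 5279 genes, 1047 were higher (19.8%) and 1082 lower (20.5%) in immature B cells at an adjusted p under 0.05 (edgeR quasi-likelihood test with the replicate as a block, Benjamini-Hochberg), and the median log2 difference of all genes was -0.01. The gates were cut on transcripts of the same cells, so these tests show how steady a difference between the cut gates was over replicates. Pre-B cells were also deeper, with a median of 4810 UMIs, and leaving out all cells over 6000 UMIs gave 639 higher and 618 lower genes. None of 6 neutrophil markers tested passed (median log2 -0.17), and without the 24 cells 5 of 5 were lower (median -2.48). Only the immature side was filtered in that fit.

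The B cell receptor and its co-receptors rose together. Of 16 genes listed, 15 were tested and 14 rose, with a median log2 difference of 1.37. Igkc was at 2259 ± 517 CPM in immature B and 313 ± 75.2 CPM in pre-B cells (log2 2.83 ± 0.12 SE, adjusted p = 1.9e-14, edgeR), with ranges of 1702 to 3172 and 219 to 446 CPM that did not overlap. Iglc2 averaged 910 ± 269 CPM in immature B and 20.8 ± 22.7 CPM in pre-B cells (log2 5.59), and Iglc1 and Iglc3 rose by log2 5.05 and 4.54. Ighm, the IgM heavy chain, rose by log2 1.003, and Cd79a and Cd79b, its signalling partners, by 1.17 and 1.37. Cd22, an inhibitory co-receptor, rose by log2 2.70, in 8 of 8 replicates. Cd81 had a log2 difference of 0.20 with an adjusted p of 0.40 (edgeR). Cr2, the complement receptor CD21, was not tested, with 36.0 ± 9.79 CPM in immature B cells and no UMI in pre-B cells.

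Downstream of the receptor, 14 of 21 signalling genes tested rose and none fell (median log2 0.55), and 18 rose without the 24 cells. Malt1, a protease of NF-kB signalling, had 195 ± 42.0 CPM in immature B and 61.6 ± 25.9 CPM in pre-B cells (log2 1.71). Lyn, a receptor-proximal kinase, rose by log2 1.63 and Ptpn6, an inhibitory phosphatase, by 1.81. Blnk, the adaptor of both the pre-B and the B cell receptor, had a log2 difference of 0.09 (adjusted p = 0.62, edgeR), and of 0.39 without the 24 cells (adjusted p = 0.0041). Syk rose by log2 0.43, but its difference was -0.09 without cells over 6000 UMIs.

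Among 20 transcription factors tested, 10 rose and 3 fell, beside 19.8% and 20.5% of all genes, and without the 24 cells 14 rose and 1 fell. Pou2f2 (Oct-2) rose by log2 2.57, Ikzf3 (Aiolos) by 2.56, Spib, an Ets factor, by 1.49 and Pax5, the factor of B lineage identity, by 1.19. Spib was at 493 ± 129 CPM in immature B and 171 ± 36.7 CPM in pre-B cells. Bach2 fell by 0.59 on the log2 scale, Irf4 by 0.47 and Tcf3 (E2A) by 0.42, the last 2 not passing without the 24 cells that lacked B identity (adjusted p of 0.29 and 0.25, edgeR). Ebf1 had a log2 difference of -0.17 (adjusted p = 0.30).

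The list for light chain recombination and receptor editing held genes of both directions. Of 14 genes tested, 7 rose (Xrcc4, Prkdc, Atm, Irf8, Foxo1, Ikzf3 and Spib) and 4 fell, against 9 and 3 without the 24 cells. Over all genes 19.8% rose and 20.5% fell, so that the count of those that fell is not read as a result about this list. Xrcc6 (Ku70) was at 42.7 ± 15.6 CPM in immature B and 190 ± 41.2 CPM in pre-B cells (log2 -2.22). The others were Lig4, the ligase of end joining (log2 -1.42), Dntt (log2 -1.64) and Irf4. Rag1, which starts the recombination, was not tested. It was at 169, 60.1, 8.92 ± 12.8 and 1.48 CPM over pro-B, pre-B, immature and IgD B cells, and 2.05% of members had a UMI.

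Genes of the pre-B receptor and of early B cells mostly fell: 9 of 14 tested fell (8 without the 24 cells) and 1, Ptprc (CD45), rose. Il7r was at 44.4 ± 21.3 CPM in immature B and 280 ± 62.3 CPM in pre-B cells (log2 -2.70), lower in 8 of 8 replicates without overlap. Igll1 fell by 1.31 on the log2 scale, Sox4 by 1.22 and Cd93, a marker of immature B cells in mouse, by 1.09. Vpreb1 and Vpreb3 fell by 0.88 and 0.52, but had adjusted p of 0.057 and 0.20 (edgeR) without the 24 cells.

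Cell cycle genes were lower without exception among those called. All 34 G2 and M phase genes tested fell (median log2 -1.49), among them Mki67, at 199 ± 79.8 CPM in immature B and 512 ± 100 CPM in pre-B cells, and Top2a, at 388 ± 91.9 and 1035 ± 172 CPM. Of 24 S phase genes tested, 17 fell and none rose, and 19 of 23 fell without the 24 cells. UMIs of the G2 and M phase list were also counted per cell, after thinning to 2000 UMIs with shallower cells left out. This kept 123 surgery and 171 sham cells of the 536 members, against 237 and 238 of the 539 pre-B cells. The member share thus describes the deeper members only. Of these, 32.5 ± 12.99% of immature B cells and 75.2 ± 9.54% of pre-B cells had 3 or more such UMIs. Without thinning, the share over all members was 28.8 ± 9.52% after surgery and 21.0 ± 4.65% after sham. The thinned difference between the gates was -42.7 percentage points, with immature B cells lower in 8 of 8 replicates. An exact paired permutation test, two-sided, gave p = 0.00781, the smallest it can give (0.0469 adjusted over 6 share tests). The difference was -38.1 points in batch 1 and -47.3 in batch 2. Among thinned members with B identity, the share was 11 of 24 cells at 0 to 2 light chain UMIs, 2 of 37 at 3 to 9, and 61 of 211 at 10 or more.

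Among survival genes, 3 of 9 tested rose and 2 fell, beside 19.8% and 20.5% of all genes, so that neither count is read as a result about this list. Bcl2 rose by log2 1.01 and Mcl1 by 1.62, while Bcl2l1, which encodes BCL-XL, was at 15.5 ± 11.6 CPM in immature B and 74.7 ± 22.1 CPM in pre-B cells (log2 -2.18). Tnfrsf13c rose by log2 2.74. All 7 MHC class II genes tested rose (median log2 1.99), with Cd74 at 3001 ± 349 CPM in immature B and 147 ± 47.1 CPM in pre-B cells (log2 4.37). Of 15 genes of mature follicular B cells tested, 11 rose and none fell (11 and 2 without the 24 cells). Those that rose included Cxcr5, the receptor that leads B cells into follicles (log2 3.89), and S1pr1, which guides exit from the marrow (log2 2.16). Cxcr4, which holds cells in the marrow, fell by 0.49 on the log2 scale (adjusted p = 0.03, edgeR).

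Among the largest differences from pre-B cells, immature B cells were higher in Cd83 (log2 5.58), Ltb, a tumour necrosis factor family ligand of lymphoid organisation (5.50), Fcmr (4.62), the inhibitory receptor Btla (4.46) and Ifi30, a lysosomal thiol reductase of antigen processing (4.46). Ltb was at 227 ± 54.2 CPM in immature B and 4.26 ± 3.71 CPM in pre-B cells. They were lower in Rsph9 and Rsph1, radial spoke proteins of cilia (log2 -4.12 and -3.54), Nrgn, a calmodulin-binding protein (-3.49), and Lgr5 (-2.80). Each of these 9 genes moved the same way in 8 of 8 replicates.

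**Figure D3:**
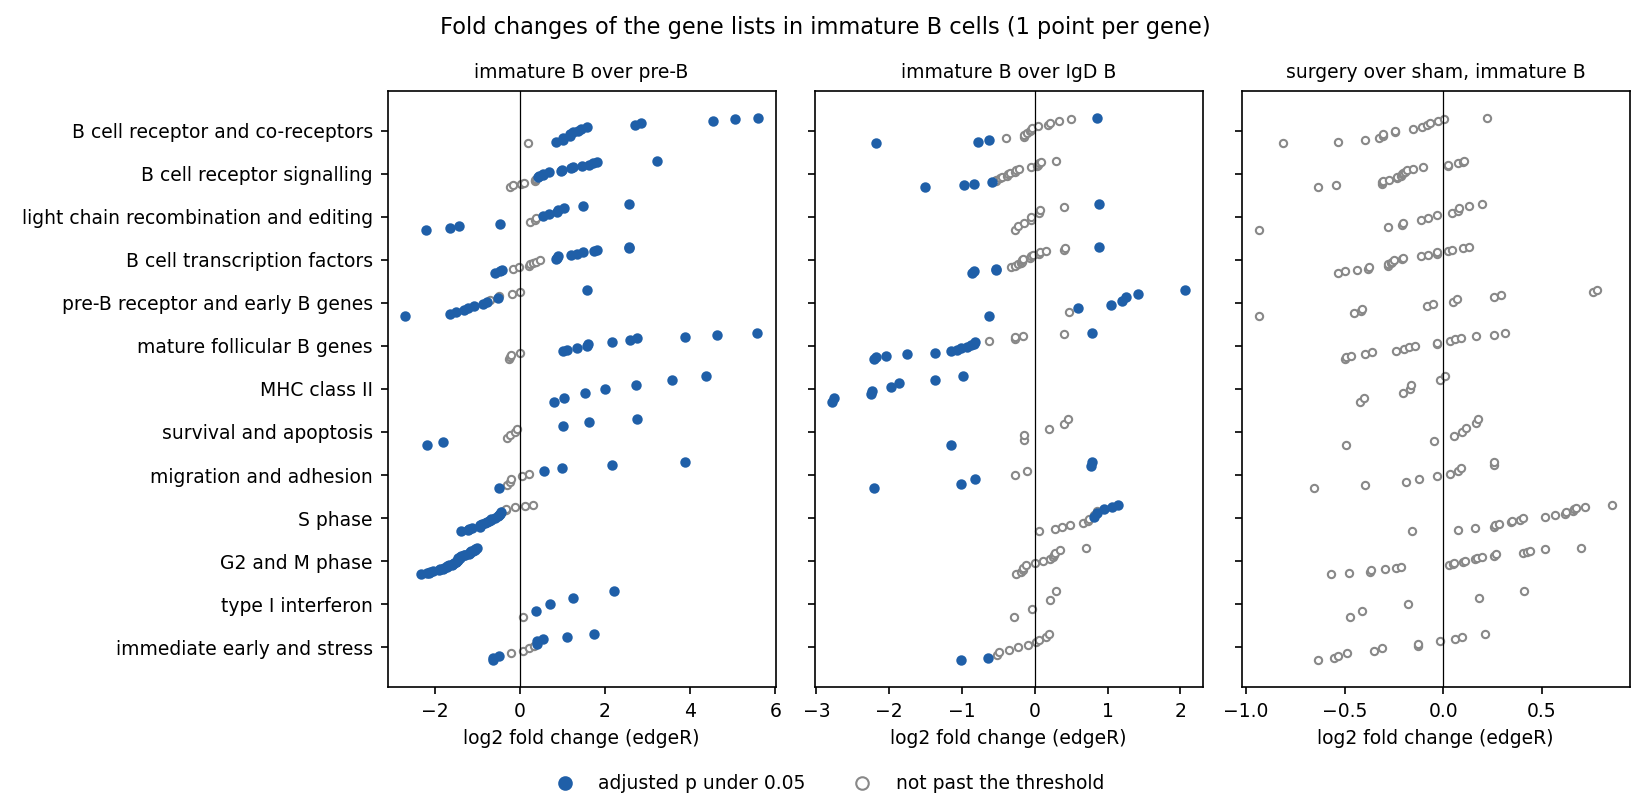
Log2 fold change of each tested gene in 13 gene lists, for immature B over pre-B cells, immature B over IgD B cells, and surgery over sham within immature B cells (edgeR, filled where the adjusted p is under 0.05). Receptor and MHC class II genes lie right of 0 against pre-B cells, MHC class II genes lie left of 0 against IgD B cells, and no point is filled for surgery over sham.

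Against IgD B cells, MHC class II genes were lower and no light chain gene passed the test. Over 2920 genes, 103 were higher (3.53%) and 197 lower (6.75%) in immature B cells (edgeR quasi-likelihood test with the replicate as a block, adjusted p under 0.05), and the median log2 difference of all genes was 0.02. Igkc had a log2 difference of -0.06 and Iglc2 of -0.04 (adjusted p of 0.81 and 0.90), and both signs turned positive without the 24 cells lacking B identity (0.24 and 0.23). Iglc1 and Ighm had differences of 0.50 and 0.21 (adjusted p of 0.088 and 0.25), and passed without those cells, at 0.77 and 0.49 (adjusted p of 0.00092 and 0.0005). Iglc3 had a difference of -0.39 (adjusted p = 0.16). None of 5 neutrophil markers tested passed, all with positive differences (median log2 0.62), and without those cells all 5 were lower (median -1.92). Only the immature side was filtered in that fit, while the neutrophil sum of the IgD gate reached 24413 CPM after sham.

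All 8 MHC class II genes tested fell, with a median log2 difference of -2.11. H2-Aa, a class II alpha chain, was at 291 ± 59.0 CPM in immature B and 2029 ± 650 CPM in IgD B cells (log2 -2.78 ± 0.15 SE, adjusted p = 2.8e-12, edgeR), in ranges of 216 to 374 and 1528 to 3534 CPM. H2-Eb1 and H2-Ab1 fell by 2.76 and 2.24 on the log2 scale, Cd74 by 1.37 and Ciita, the transactivator of class II genes, by 2.26. Marchf1, a ligase that removes class II from the surface, fell by 2.44. Immature B cells thus stood between the pre-B and the IgD gates for these genes: H2-Aa was at 71.0, 291 and 2029 CPM in pre-B, immature and IgD B cells.

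Of 18 mature follicular genes tested, 12 fell (11 without the 24 cells) and 1, Cd44, rose. Without those cells Cd44 had an adjusted p of 0.071 and S1pr1, among the 12, one of 0.13 (edgeR). Cd55, a complement regulator, was at 105 ± 24.6 CPM in immature B and 459 ± 142 CPM in IgD B cells (log2 -2.05), and Cr2 at 36.0 ± 9.79 and 158 ± 49.3 CPM (log2 -2.19). Bcl2 fell by 1.15 and Ccr7 by 1.02 on the log2 scale. Together with the pre-B values, Bcl2 ran at 72.0, 143 and 345 CPM over pre-B, immature and IgD B cells, and Cd83 at 1.48, 68.7 and 180 CPM.

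Early genes stood the other way. Of 8 early B genes tested, 6 rose (Vpreb1, Vpreb3, Lef1, Sox4, Cd24a and Cd93) and Ptprc fell, and without the 24 cells 7 rose and none fell, with Ptprc at an adjusted p of 0.052 (edgeR). Vpreb3 was at 818 ± 279 CPM in immature B and 294 ± 160 CPM in IgD B cells (log2 1.41), and Vpreb1 at 259 ± 196 and 35.4 ± 50.4 CPM (log2 2.06). The Vpreb1 level lay mostly in the 46 members with B identity but at most 2 light chain UMIs, at 1995 CPM as a pool. Members with 3 to 9 and with at least 10 light chain UMIs had 11.4 and 5.22 CPM, below the mean of IgD B cells. Lef1 and Sox4 were also lower in members with light chain than in those without, while Vpreb3 and Cd24a were higher. The members without light chain in that test included most of the 24 cells lacking B identity. Whether these directions hold without those cells was not tested. Spib rose by log2 0.88, Ly6d by 0.53 and Cd72, an inhibitory co-receptor, by 0.85. Ets1 and Klf2, a factor of quiescence and of trafficking genes, fell by 0.86 and 0.83. In S phase 5 of 14 genes tested rose (Mcm4, Mcm6, Pcna, Uhrf1 and Dut; 3 of 12 without the 24 cells), while none of 13 G2 and M phase genes tested passed, Mki67 having 199 ± 79.8 CPM in immature B and 112 ± 85.3 CPM in IgD B cells. Outside the lists the highest values were those of Ppm1e, a phosphatase (log2 1.95), Atp1b1, a sodium pump subunit (1.79), and Lgals1, galectin-1 (1.49), and the lowest that of Trim7 (-2.85).

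The octamer bound by Oct-1 and Oct-2 was searched in RefSeq promoter windows, 250 bases before to 50 after the start, as ATGCAAAT or its reverse complement ATTTGCAT. It was present in 1.74% of all 32851 windows and in 1.64% of the 4273 windows of genes tested against pre-B cells, where 1.82% of windows of genes that rose and 1.71% of those that fell held it. Against IgD B cells it was in 4 of 78 windows of genes that rose (5.13%; Vpreb3, Chchd10, Psmd13 and Nedd4) and in 2 of 156 of genes that fell (1.28%; Prkcb and Zswim6), beside 1.66% of the windows tested. The Vpreb3 window (GRCm38.p6, chr10:75948050-75948349, plus strand) is shown with the octamer in capitals, beginning 45 bases before the start, because this gene is the early B gene among the 4.
Vpreb3: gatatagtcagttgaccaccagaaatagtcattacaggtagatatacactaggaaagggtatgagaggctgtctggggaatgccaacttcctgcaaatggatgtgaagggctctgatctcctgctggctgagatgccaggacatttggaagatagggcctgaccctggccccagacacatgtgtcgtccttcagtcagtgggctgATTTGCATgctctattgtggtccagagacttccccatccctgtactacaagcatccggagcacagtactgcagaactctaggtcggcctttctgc
A match is a description of these letters only.

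Surgery was then set against sham. Immature B cells made up 1.69% and 0.844% of cells in batch 1 and 1.01% and 2.46% in batch 2 after surgery, against 2.88% and 2.22% in batch 1 and 1.67% and 2.82% in batch 2 after sham. The groups overlapped. The means were 1.502 ± 0.739% after surgery and 2.40 ± 0.567% after sham (SD, n = 4 each), a difference of -0.894 percentage points (exact permutation test over 70 splits, two-sided, p = 0.143, 0.286 adjusted over 6 share tests). It was -1.28 points in batch 1 and -0.506 in batch 2. Median depth per replicate ran from 6271 to 12404 UMIs over all cells after surgery and from 5860.5 to 10750 UMIs after sham. With cells thinned to 2000 UMIs before the gate was applied, and shallower cells left out, the shares were 0.877 ± 0.623% and 1.18 ± 0.453% (exact permutation p = 0.486). Among the 4 B lineage gates the members made up 13.04 ± 5.96% after surgery and 18.6 ± 4.71% after sham (exact permutation p = 0.20, 0.30 adjusted).

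The share of lambda cells among called members had a lower mean after surgery, but did not pass the test. They were 6 of 40 and 5 of 24 cells in batch 1 and 1 of 15 and 13 of 73 cells in batch 2 after surgery, against 17 of 61 and 25 of 120 cells in batch 1 and 12 of 54 and 20 of 80 cells in batch 2 after sham. The exact 95% interval of the smallest of these shares, 6.67%, is 0.169 to 31.9%, and it covers counting error only. The highest surgery share and the lowest sham share were equal, at 20.8%. The means were 15.1 ± 6.09% after surgery and 24.0 ± 3.12% after sham (SD, n = 4 each), a difference of -8.90 points (exact permutation test, two-sided, p = 0.0571, 0.171 adjusted over 6 tests), with -6.43 points in batch 1 and -11.4 in batch 2. The smallest p that 4 against 4 replicates can give is 0.0286. As the lambda share varied with depth, the median depth of members is given beside it: 2072.5 and 1803 UMIs in batch 1 and 2461 and 2434 in batch 2 after surgery, against 1645 and 1659 in batch 1 and 2566 and 2259 in batch 2 after sham. The part of depth in the difference was not tested.

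**Figure D4:**
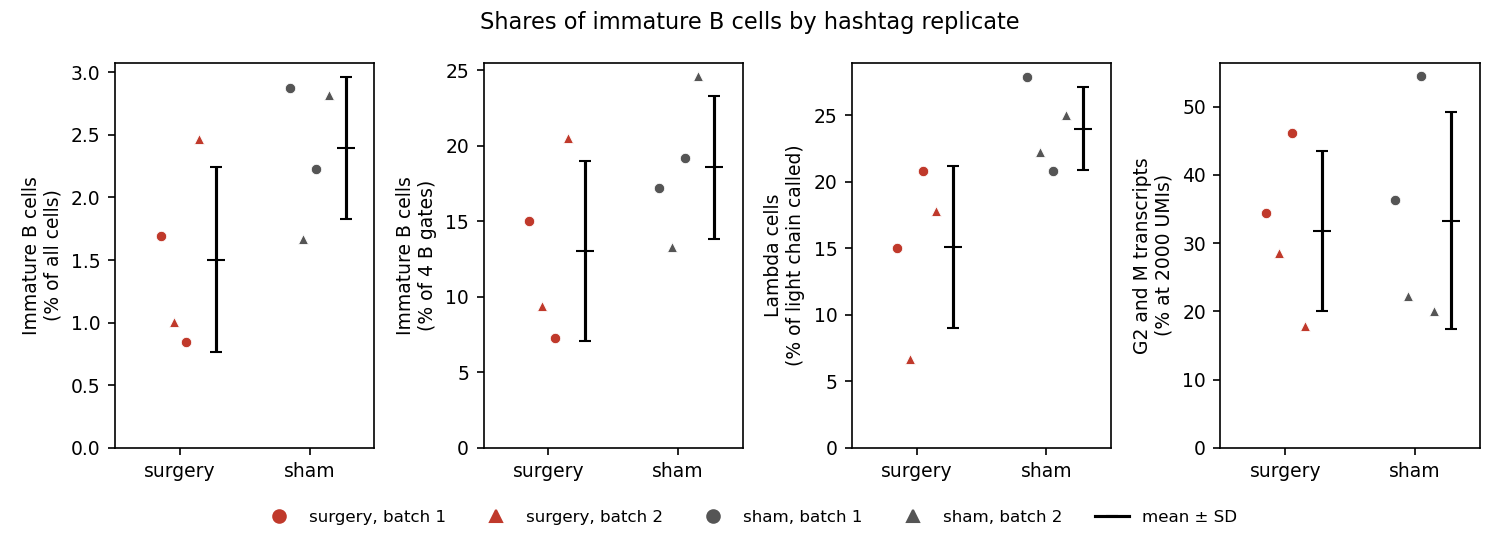
Shares per hashtag replicate after surgery (left) and sham (right) with mean ± SD of 4 replicates: immature B cells in percent of all cells and of the 4 B gates, lambda cells in percent of light chain called members, and members with UMIs of at least 3 G2 and M phase genes, in percent of members thinned to 2000 UMIs (shallower ones left out). The groups overlap in the first, second and last panel and touch at 20.8% in the lambda panel.

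Among members thinned to 2000 UMIs, with shallower ones left out, those with a Rag1 or Rag2 UMI averaged 2.67 ± 3.63% after surgery and 3.65 ± 1.07% after sham (exact permutation p = 0.629, 0.754 adjusted). In 2 surgery replicates none was found in 29 and in 14 cells, which allows shares of up to 10.3% and 21.4% of cells with a UMI at that depth, not of cells that express either gene. Members with G2 and M phase transcripts averaged 31.8 ± 11.8% and 33.3 ± 15.9% (exact permutation p = 0.886 before and after adjustment), and the difference of -1.503 points turned to 7.76 points without thinning.

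No gene passed between surgery and sham in immature B cells. Over 3981 genes, 0 were higher (0%) and 0 lower (0%) at an adjusted p under 0.05 in edgeR's quasi-likelihood test with batch as a term, and DESeq2 called 0 and 0. At an unadjusted p under 0.05 there were 103 higher and 75 lower genes. Igkc had 1984 and 1702 CPM in batch 1 and 1743 and 3172 CPM in batch 2 after surgery, against 2077 and 2092 CPM in batch 1 and 2575 and 2730 CPM in batch 2 after sham, so that the surgery values lay both below and above all sham values (log2 -0.11 ± 0.18 SE). Iglc1 had 568 and 298 CPM in batch 1 and 515 and 788 CPM in batch 2 after surgery, against 795 and 1009 CPM in batch 1 and 901 and 1163 CPM in batch 2 after sham. Its groups did not overlap, although 788 and 795 CPM were close, and the log2 difference was -0.81 ± 0.21 SE (unadjusted p = 0.0012, adjusted p = 0.864, edgeR), with an adjusted p of 0.0136 where genes with low counts were kept in the fit. The share of all 3981 genes whose groups did not overlap is not given here, so this separation is not read as a result. Iglc3 had a log2 difference of -0.39. Iglc2 had one of -0.15, and of 0.04 without the 24 cells lacking B identity.

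**Figure D5:**
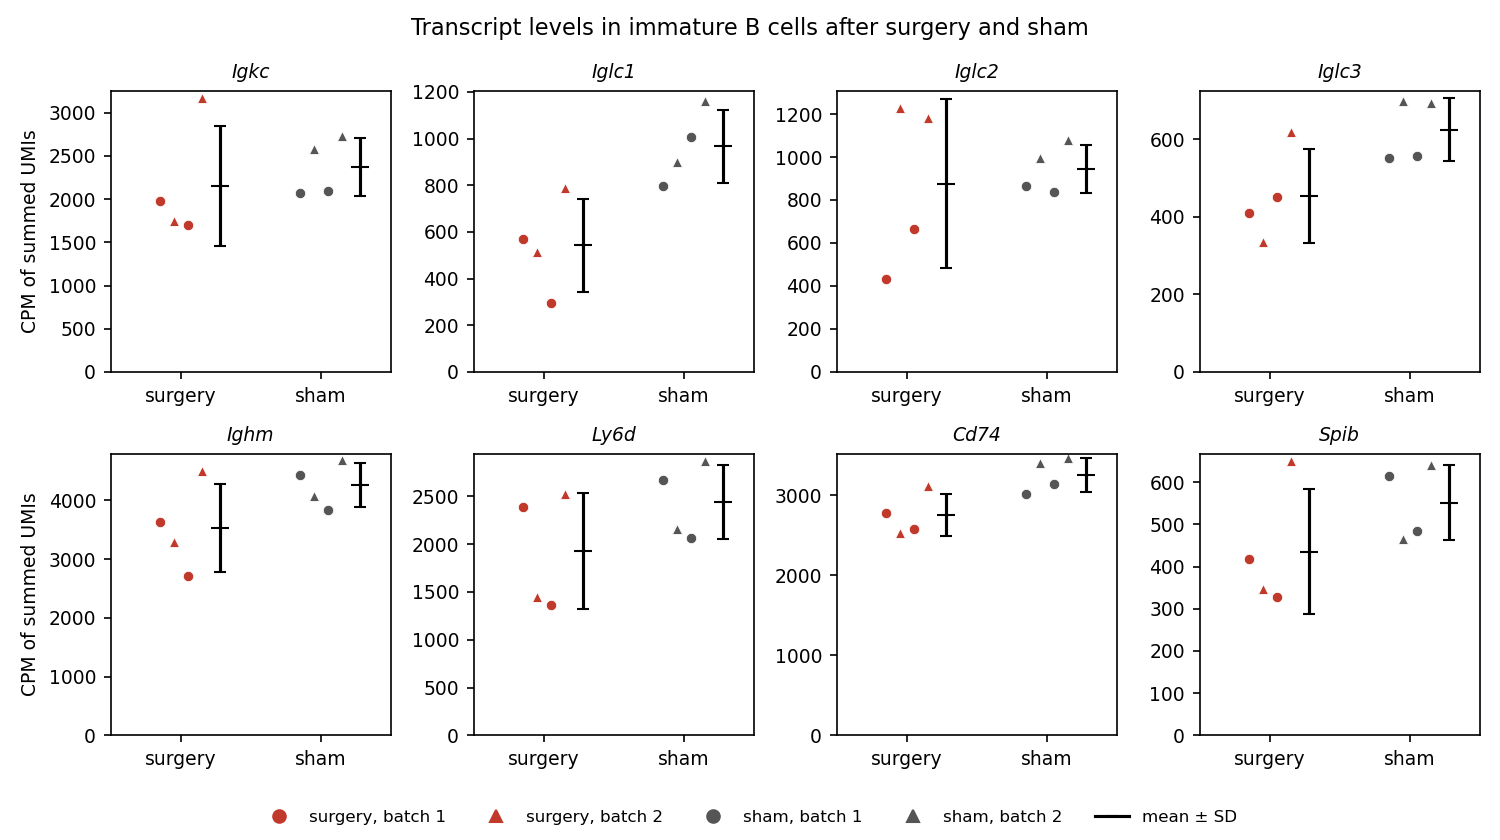
Level of 8 transcripts in immature B cells in CPM of summed UMIs, 1 point per hashtag replicate after surgery (left) and sham (right), with mean ± SD of 4 replicates. The groups do not overlap in the Iglc1 panel and overlap in the other 7, and no gene passed the adjusted threshold.

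Receptor and identity genes had values on the lower side after surgery that shrank without the 24 cells lacking B identity. Cd79b averaged 797 ± 204 CPM after surgery and 1187 ± 144 CPM after sham (adjusted p = 0.94, edgeR), and Ighm 3530 ± 746 and 4260 ± 380 CPM. Of 15 receptor genes tested 2 had a positive difference (median log2 -0.24), and 7 of 15 without those cells (median -0.10). The neutrophil markers lay on the other side: all 5 tested of the 8 had a positive difference (median log2 1.49), and the median was 0.17 without those cells. The other 3 had lower means after surgery than after sham: S100a9 had 423 and 1664 CPM, Ngp 67.8 and 195 CPM, and Ltf 42.2 and 141 CPM. The mean of S100a8, among the 5, was 1438 CPM after surgery and 1447 CPM after sham. No gene of either list passed, and the background share of calls was 0%.

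S phase genes had mostly positive differences. Of 19 tested, 18 were positive with a median log2 of 0.41, against 0.01 over all genes, and 15 of 16 were positive without the 24 cells (median 0.37). Pcna, the sliding clamp of replication, had 366 and 473 CPM in batch 1 and 525 and 389 CPM in batch 2 after surgery, against 173 and 363 CPM in batch 1 and 338 and 259 CPM in batch 2 after sham. Its groups did not overlap, yet the adjusted p was 0.94 (edgeR, unadjusted 0.013), and no S phase gene passed. Pcna was 1 of the 19, and the share of all tested genes without overlap is not given here, so its separation is not read as a result. The G2 and M phase list had 15 of 22 positive differences (median 0.10), and 5 of 15 without the 24 cells. Of 26 genes that earlier results of these data gave as changed after surgery in other progenitors, 10 were tested in immature B cells and none passed, with 5 positive and 5 negative.

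The surgery effect was also compared between immature B and pre-B cells. Of 6341 genes 1 had a larger effect in immature B cells (0.0158%) and 0 a smaller one (0%) at an adjusted p under 0.05 (edgeR, interaction of gate and operation), with 119 and 114 genes at an unadjusted p under 0.05. That gene was Zc3h12b, of a family of RNA-degrading zinc finger proteins. In members it averaged 183 ± 161 CPM after surgery and 30.3 ± 33.1 CPM after sham, and 102 of its 135 UMIs lay in the 24 cells lacking B identity. Without them the difference of effects was no longer past the threshold (adjusted p = 1.0, edgeR).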

How the data were processed

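The authors deposited raw UMI counts per barcode for genes and hashtags in 2 PIPseq libraries; Cell Ranger and GRCm38 are named in the submitters' processing notes, and versions are not given in the sources used here. Barcodes with at least 1000 gene UMIs, at most 10% mitochondrial UMIs and exactly 1 hashtag of at least 200 counts were kept, and replicates were assigned by hashtag name. Scrublet (scanpy 1.11.5) marked 0.198% and 0.155% of cells and has not worked here, so doublets stay in. Counts were summed per replicate and gate and tested with edgeR 4.0.16 (R 4.3.3, quasi-likelihood, Benjamini-Hochberg), with batch as a term for surgery against sham and replicate as a block between gates. Shares were compared by exact permutation, listing every split (numpy 2.4.6). DESeq2 1.42.0, other filters, thinned cells and left-out replicates were alternatives. Scripts were tested on simulated data.

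The members and lists were chosen with earlier results of these data known. Genes named are the 10 highest and 10 lowest log2 differences with an adjusted p under 0.05, a mean of at least 20 CPM and the same sign in both batches, without genes fixed by the gates, immunoglobulin, mitochondrial and unnamed genes, and beside them list members that passed and marker genes. Replicate numbers did not pair samples across groups: same-numbered surgery and sham replicates had correlations of deviations of -0.0024 in batch 1 and 0.087 in batch 2. Some genes that the rule names are not reported here.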

Additional observations from a re-analysis of the deposited data

Results flagged for a closer look

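Zc3h12b was picked out because its surgery effect differed between immature B and pre-B cells by a test of the difference itself, at a log2 difference of 3.82 ± 0.53 SE (adjusted p = 0.00147, edgeR interaction term), with 2.91 in batch 1 and 3.85 in batch 2. A UMI was found in 36 members, 17 after surgery and 19 after sham, and 76 of its 135 UMIs lay in 3 cells. The difference was 1.64 without the 24 members lacking B identity (adjusted p = 1.0). Of 30 groups of replicates examined for a sample far from the others, 0 held one.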

How the results depend on the processing

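The lambda difference between surgery and sham kept its sign throughout and reached the smallest possible exact permutation p (0.0286) without called doublets (-9.17 points) and without members lacking B identity (-8.95 points); with 1 replicate left out it ran from -10.8 (p = 0.0286, exact permutation, without surgery batch 1 replicate 2) to -6.10. The Rag difference was 0.115 points without cells over 6000 UMIs. The G2 and M phase difference was 7.76 points unthinned, 6.28 at 1000 UMIs and from -6.29 to 5.58 with 1 replicate left out, positive without sham batch 1 replicate 2 or surgery batch 2 replicate 2. Surgery against sham gave 25 higher and 15 lower genes with no low count filter, and 0 to 9 higher with 1 replicate left out (9 without surgery batch 1 replicate 1). Against pre-B cells the stricter gate gave 709 lower genes, thinning to 2000 UMIs 279 higher and 321 lower, and leaving out cells over 6000 UMIs 639 and 618. Against IgD B cells no filter gave 244 higher genes, thinning 51 higher and 105 lower, and leaving out deep cells 166 higher; with 1 replicate left out there were 47 to 107 higher and 113 to 208 lower, both lowest without sham batch 2 replicate 1, and 53 and 66 higher without sham batch 1 replicate 2 and surgery batch 2 replicate 2. Light chain members gave 378 higher genes with no filter, 123 higher and 77 lower in DESeq2, and 113 to 204 lower with 1 replicate left out (113 and 118 without surgery or sham batch 2 replicate 2). The interaction gave 10 higher and 12 lower genes with no filter, 0 higher when thinned, without members lacking B identity or without deep cells, and 1 to 3 higher and 0 to 3 lower with 1 replicate left out (most without surgery batch 1 replicate 1 and sham batch 2 replicate 2).

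Signs turned as follows. Igkc against IgD B cells was 0.14 with no filter, 0.063 in the stricter gate, 0.22 thinned, 0.24 without members lacking B identity, 0.19 without deep cells and -0.095 to 0.013 with 1 replicate left out. Iglc2 against IgD B cells was 0.14, 0.031, 0.23 and 0.17 with no filter, in the stricter gate, without members lacking B identity and without deep cells, and -0.18 to 0.057 with 1 replicate left out. Against pre-B cells, Ifi27l2a was -0.081 thinned and -0.55 without deep cells, Jund -0.058 and -0.35, Mcm3 0.045 thinned and Syk -0.091 without deep cells. Between surgery and sham, Igkc was 0.17 in the stricter gate, 0.041 thinned, 0.048 without members lacking B identity, 0.057 without deep cells and -0.30 to 0.031 with 1 replicate left out. Iglc2 was 0.040 without members lacking B identity and -0.26 to 0.052 with 1 replicate left out. The cause was not tested.

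With the replicate number as a block, surgery against sham gave 0 and 0 genes, and the lambda difference stayed at -8.90 points (exact paired p = 0.25); without the replicate block the gate comparisons gave 1096 higher and 1143 lower genes against pre-B cells and 121 and 215 against IgD B cells. For light chain members the stricter gate, thinning, the B identity filter and the depth limit were not run. Few cells per replicate (19 to 131) limit what surgery against sham could show.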
